A study of Mus musculus with 6 samples.

Results

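The cell cycle and DNA replication genes are a set of 50 mouse genes picked by function, from the cyclins that open the cycle to the motors and kinases that run mitosis, out of the 55263 genes with deposited counts. Counts per transcript were summed per GENCODE vM21 gene identifier, and genes are named by their symbols. Of the 50 genes, 42 passed the filter on low counts and were among the 17113 genes tested. RNA was sequenced from wild-type bone marrow-derived macrophages, which are primary macrophages grown out from mouse marrow. One group received LPS, a glycolipid of the bacterial outer membrane sensed by TLR4, together with an agent labelled HACA, another group received LPS alone, and the third was the control, with 2 libraries in each group. The labels spell out neither HACA nor a dose, a time, the age or the sex of the mice, or how the cells were grown, and they do not say what a replicate number marks. Nor do they tie each replicate to a culture or an animal of its own, and every p-value therefore reflects just the variation among these 6 libraries, some or all of which may be technical.

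Progress through the cell cycle is driven by cyclins and the kinases they switch on. D-type cyclins respond to growth factors and, with the E-type cyclins, release E2F transcription factors from the retinoblastoma protein, and E2F then raises the genes for origin licensing, the replication fork and nucleotide supply. Later in the cycle B-MYB (Mybl2) and FOXM1 raise a later wave of genes for mitosis, whose promoters commonly carry CCAAT boxes, bound by NF-Y, and a cell cycle homology region (CHR), through which the DREAM complex silences them in resting cells. Macrophages from marrow divide in response to CSF1, and LPS is known to stop that division in such cultures.

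Promoters of a selection of the genes are shown here. Ccnb2, Plk1, Ube2c, Top2a and Cdc20 differed strongly between the replicate numbers. Mki67, E2f2 and Tk1 were called in both treatment comparisons that include LPS alone. Mcm7 and Birc5, not shown, and Ccnd1 and Ccnd2, which had no promoter entry, were also called in both. Hmmr, Cenpf, Kif11, Bub1, Nusap1 and Rrm2, not shown, differed more between the replicate numbers than Top2a and Cdc20. In the 250 bases before their starts, Cenpf and Kif11 had a CCAAT box and a CHR. Hmmr, Bub1, Rrm2 and Mcm7 had no CHR there, Birc5 had no CCAAT box, and Nusap1 had neither. Sequences are from RefSeq on GRCm38.p6, the build of the GENCODE annotation, and give the 200 bases before the annotated start, 5′ to 3′ on the strand of the gene, with CCAAT boxes and CHR letters in capitals on either strand (a box on the other strand reads ATTGG, and a CHR TTCAAA). Ccnb2 (cyclin B2, chr9:70421555-70421754, minus strand), Top2a (topoisomerase II alpha, chr11:99024190-99024389, minus), Cdc20 (activator of the anaphase-promoting complex, chr4:118437344-118437543, minus), Mki67 (the Ki-67 proliferation antigen, chr7:135716380-135716579, minus) and Tk1 (cytosolic thymidine kinase, chr11:117826015-117826214, minus) lie on the reverse strand. Plk1 (polo-like kinase, chr7:122159235-122159434), Ube2c (ubiquitin carrier enzyme of the anaphase-promoting complex, chr2:164769729-164769928) and both annotated starts of E2f2 (chr4:136172074-136172273 and chr4:136180582-136180781) lie on the plus strand.
Ccnb2: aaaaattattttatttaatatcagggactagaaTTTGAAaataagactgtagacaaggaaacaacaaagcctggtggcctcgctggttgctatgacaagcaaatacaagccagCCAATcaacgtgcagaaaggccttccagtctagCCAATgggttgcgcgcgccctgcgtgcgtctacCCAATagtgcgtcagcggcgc
Plk1: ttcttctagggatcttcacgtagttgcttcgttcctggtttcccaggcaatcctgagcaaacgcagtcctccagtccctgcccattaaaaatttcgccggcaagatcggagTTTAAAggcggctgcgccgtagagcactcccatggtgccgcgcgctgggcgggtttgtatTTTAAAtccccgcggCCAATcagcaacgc
Ube2c: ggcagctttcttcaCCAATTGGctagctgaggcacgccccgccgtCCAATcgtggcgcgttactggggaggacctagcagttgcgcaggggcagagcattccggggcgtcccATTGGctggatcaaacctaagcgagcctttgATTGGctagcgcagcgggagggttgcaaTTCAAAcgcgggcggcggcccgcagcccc
Top2a: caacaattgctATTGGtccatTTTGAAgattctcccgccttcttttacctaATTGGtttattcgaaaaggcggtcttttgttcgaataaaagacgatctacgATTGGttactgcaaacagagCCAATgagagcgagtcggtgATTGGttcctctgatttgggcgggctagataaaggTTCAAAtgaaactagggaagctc
Cdc20: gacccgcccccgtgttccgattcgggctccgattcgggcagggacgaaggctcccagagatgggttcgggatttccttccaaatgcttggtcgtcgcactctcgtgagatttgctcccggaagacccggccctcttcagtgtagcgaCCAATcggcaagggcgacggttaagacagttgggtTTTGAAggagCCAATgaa
Mki67: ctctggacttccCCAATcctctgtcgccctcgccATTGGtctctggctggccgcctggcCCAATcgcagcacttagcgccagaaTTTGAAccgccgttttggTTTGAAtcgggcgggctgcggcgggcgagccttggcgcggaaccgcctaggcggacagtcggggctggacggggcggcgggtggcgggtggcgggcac
E2f2 window 1: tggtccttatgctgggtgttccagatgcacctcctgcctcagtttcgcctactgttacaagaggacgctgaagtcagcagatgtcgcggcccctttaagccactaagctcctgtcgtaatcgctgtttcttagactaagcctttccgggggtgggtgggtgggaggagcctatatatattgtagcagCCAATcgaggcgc
E2f2 window 2: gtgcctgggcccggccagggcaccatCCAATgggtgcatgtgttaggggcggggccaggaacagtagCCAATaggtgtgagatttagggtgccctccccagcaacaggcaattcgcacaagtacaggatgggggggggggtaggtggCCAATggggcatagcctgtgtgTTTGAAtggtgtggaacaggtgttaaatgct
Tk1: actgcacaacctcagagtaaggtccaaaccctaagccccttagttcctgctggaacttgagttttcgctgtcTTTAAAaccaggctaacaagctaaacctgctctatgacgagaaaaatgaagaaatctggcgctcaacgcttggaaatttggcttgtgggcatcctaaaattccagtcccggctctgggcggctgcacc

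Of the 50 genes, 39 matched this promoter table, with 44 windows in all, and Aurkb, Ccna2, Ccnd1, Ccnd2, Ccne2, Cdc25c, Foxm1, Gins2, Kif20a, Mcm4 and Tpx2 had no entry. In the 250 bases before each start, on both strands and with overlaps counted, the letters CCAAT were found in 77.3% of the 44 windows, against 33.8% of all 32851 windows. CHR letters (TTTGAA or TTTAAA, the second of which reads the same on both strands) were in 43.2% of the gene set's windows, against 25.2% of all windows. E2F letters (TTTGGCGC, TTTCCCGC, TTTGCCGC or TTTCGCGC) were in 13.6%, against 1.86% of all windows. A CCAAT box together with a CHR was found in 54.5% of the 22 windows of the mitotic genes and in 18.2% of the 22 windows of the cyclin, E2F, replication and nucleotide genes. E2F letters had the opposite split, with 4.55% of the mitotic windows and 22.7% of the others, among them Mcm5, Mcm6, Mcm7, Cdc6 and Uhrf1. In the Ccnb2 promoter the 3 CCAAT boxes began 87, 54 and 21 bases before the start, each 33 bases from the next. Mki67 also had 3 CCAAT boxes and 2 CHRs in its window, and Tk1 had 1 CHR and no CCAAT box. These matches describe letters and are not evidence of binding.

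The libraries held 12529874 to 15379496 counts each, and genes of the annotated type misc_RNA took 24.3% to 29.2% of them. Levels are given as TMM-scaled CPM (counts scaled to a common library size), where TMM factors adjust each library's total for differences in composition. The factors were 0.812 and 0.677 in LPS and 1.14 to 1.19 in the other libraries, and without them the median log2 difference over all genes moves by about the same amount in opposite directions, to -0.71 for LPS against control and 0.71 for LPS+HACA against LPS. Of the 17 macrophage markers, 15 were tested. Of all 17, Lyz2 had 30358 to 47787 CPM, while Adgre1 was at 0.674 CPM or below and Cd163 at 0.728 CPM or below in every library. Just 3% of the exonic bases of Adgre1 and 18.6% of those of Cd163 belong to a single transcript. The low values of these markers therefore do not show that the genes were silent, and the part of shared bases was not tested. The 8 genes that were not tested, Ccne2, Cdc6, Cdt1, Mcm3, Gins2, Uhrf1, Aurka and Tpx2, had 7 to 48 counts over all libraries. The share of their exonic bases that belongs to a single transcript was 6.95% to 30.6% (median 12.1%), against 18.9% to 100% (median 62.5%) in the 42 genes tested. The part of shared bases in these low counts was not tested, and such counts do not show that the genes were silent. Exons of 18 of the 50 genes overlap those of another gene. Of these, Ccnd1, Ccnd2, Ccnd3, Mcm7, Tk1, Ube2c, Prc1 and Top2a were called for a treatment. Plk1, Cdc20, Ccna2, Foxm1, Nusap1 and Cdc25c were called for the replicate number alone. Whether the counting used the strand is not given in the sources used here, so values of the 18 genes are uncertain to that extent.

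**Figure D1:**
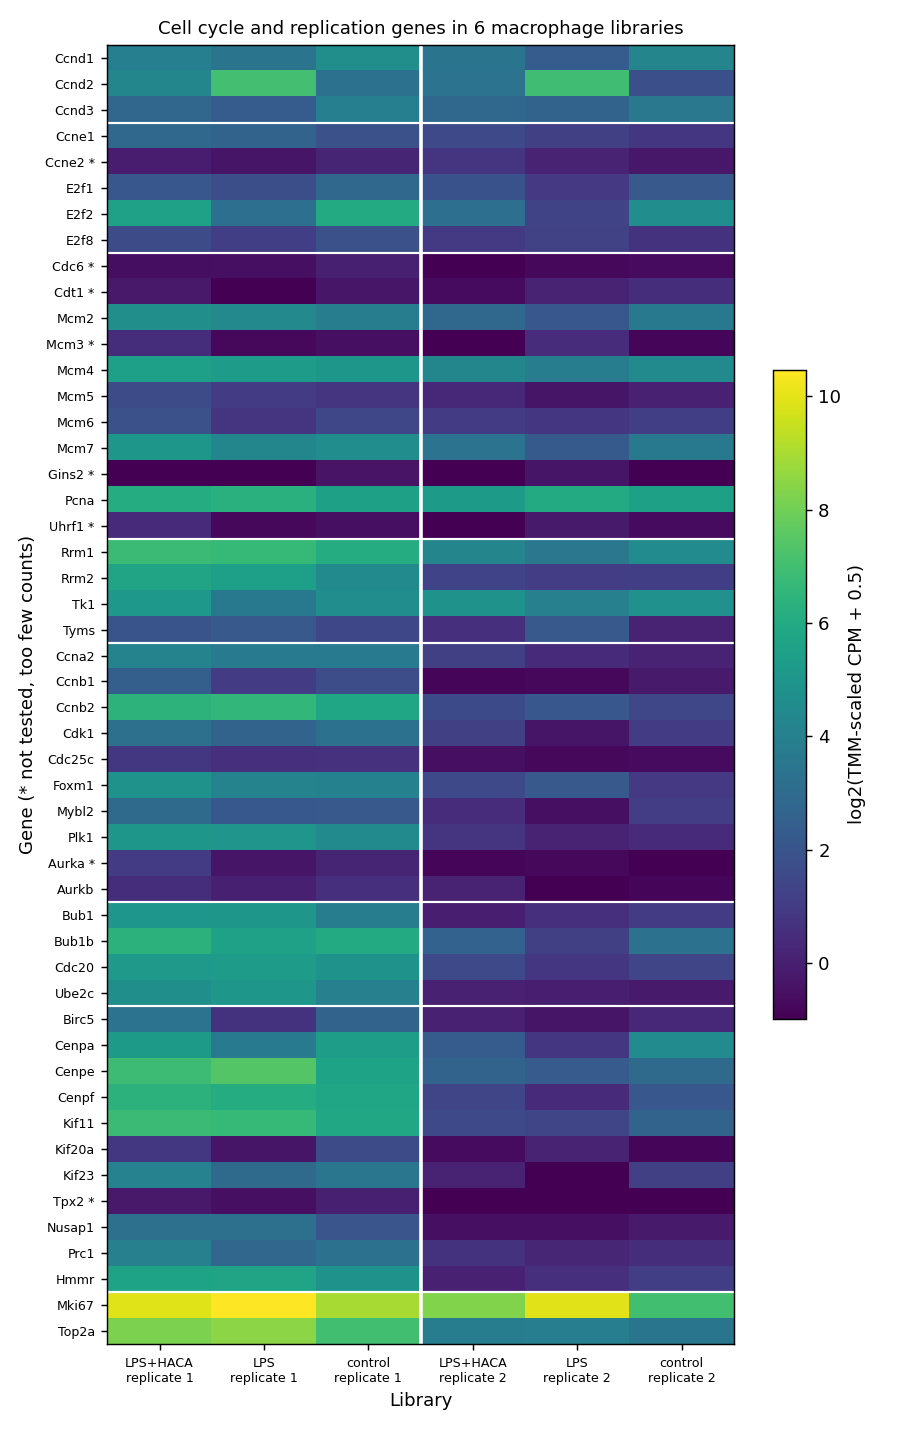
Levels of the 50 genes (rows, by role) in the 6 libraries (columns, replicate 1 on the left and replicate 2 on the right), as log2 of TMM-scaled CPM plus 0.5; an asterisk marks the 8 genes with too few counts to test. Apart from Mki67, most mitotic genes (the rows below Tyms) are brighter in the 3 libraries of replicate 1 than in those of replicate 2, whereas Ccnd2 is brightest in the LPS library of either number.

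The libraries numbered 1 had far higher levels of mitotic genes than those numbered 2 in every group. This difference was known when the genes were chosen and is given as a description. Top2a, which untangles sister chromatids, had 293, 360 and 126 CPM in replicate 1 of LPS+HACA, LPS and control, against 14.2, 14.3 and 10.5 CPM in replicate 2. Ccnb2, a partner of the mitotic kinase CDK1, had 85.2, 95.1 and 55.4 CPM in replicate 1, against 2.5, 3.85 and 2.18 CPM in replicate 2. The lowest replicate 1 library of either gene lay well above the highest replicate 2 library. Plk1, a kinase needed for spindle assembly, had 33.4, 31.5 and 21.6 CPM in replicate 1, against 1.22, 0.578 and 0.794 CPM in replicate 2. Ube2c had 25.6, 33.5 and 15.7 CPM in replicate 1, against 0.541, 0.482 and 0.397 CPM in replicate 2. In log2 terms replicate 1 was higher by 4.21 ± 0.22 for Top2a, 4.79 ± 0.20 for Ccnb2, 5.01 ± 0.27 for Plk1 and 5.63 ± 0.28 for Ube2c (± SE of the replicate term in the fit over all 6 libraries, as for each log2 fold change below). In bulk RNA, fewer cells of a type and less RNA per cell cannot be told apart, so these levels do not separate a larger share of dividing cells from more transcript in each.

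Over the 42 genes tested, 29 were higher in replicate 1 and 0 were lower at an adjusted p under 0.05 (edgeR quasi-likelihood test, Benjamini-Hochberg over all genes), with 36 higher and 0 lower at an unadjusted p under 0.05 and 29 higher and 0 lower with DESeq2. Over all 17113 genes 3.59% were called for the replicate number, 2.5% higher and 1.09% lower in replicate 1. At an unadjusted p under 0.05, 9.29% of all genes were higher and 8.18% lower. The median log2 difference was 2.67 over the 42 genes and -0.01 over all genes. Replicate 1 was higher in all 3 groups for 37 of the 42 genes, against 20.7% of all genes, and the libraries of the 2 numbers did not overlap for 28 of them, against 11.3% of all genes. By role, 23 of the 25 tested genes of mitosis (kinases and cyclins, spindle checkpoint, centromere and spindle, chromosome structure) were called, with a median log2 difference of 3.90. Of the 17 tested genes of the other roles (D-type cyclins, E-type cyclins and E2F factors, licensing and fork, nucleotide supply) 6 were called, with a median of 1.11. Those 6 were Ccne1, E2f2, Mcm4, Mcm7, Rrm1 and Rrm2. All D-type cyclins stayed below the threshold, at log2 differences of 0.03 to 0.81. Tk1 was the single gene below 0, at -0.09 ± 0.19, and Pcna, the sliding clamp of the fork, was at 0.38 ± 0.18. With 1 library left out at a time, 25 to 29 genes were higher. Calls for Kif11 and Cenpa were lost without either LPS library (adjusted p = 0.238 and 0.493 without replicate 1, 0.244 and 0.499 without replicate 2), and so was that for Bub1 (0.0519 and 0.0812). Calls for Ccne1 and Mcm4 were lost without LPS+HACA replicate 1 (0.211 and 0.117) or LPS+HACA replicate 2 (0.11 and 0.0501), for Ccnb1 without LPS+HACA replicate 1 (0.0542) and for Cenpe without LPS replicate 2 (0.0635). Cdc25c, the phosphatase that activates CDK1, passed only when LPS replicate 2 was the library left out, with an adjusted p of 0.0623 to 0.443 otherwise, and missed with DESeq2 (0.0863).

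**Figure D2:**
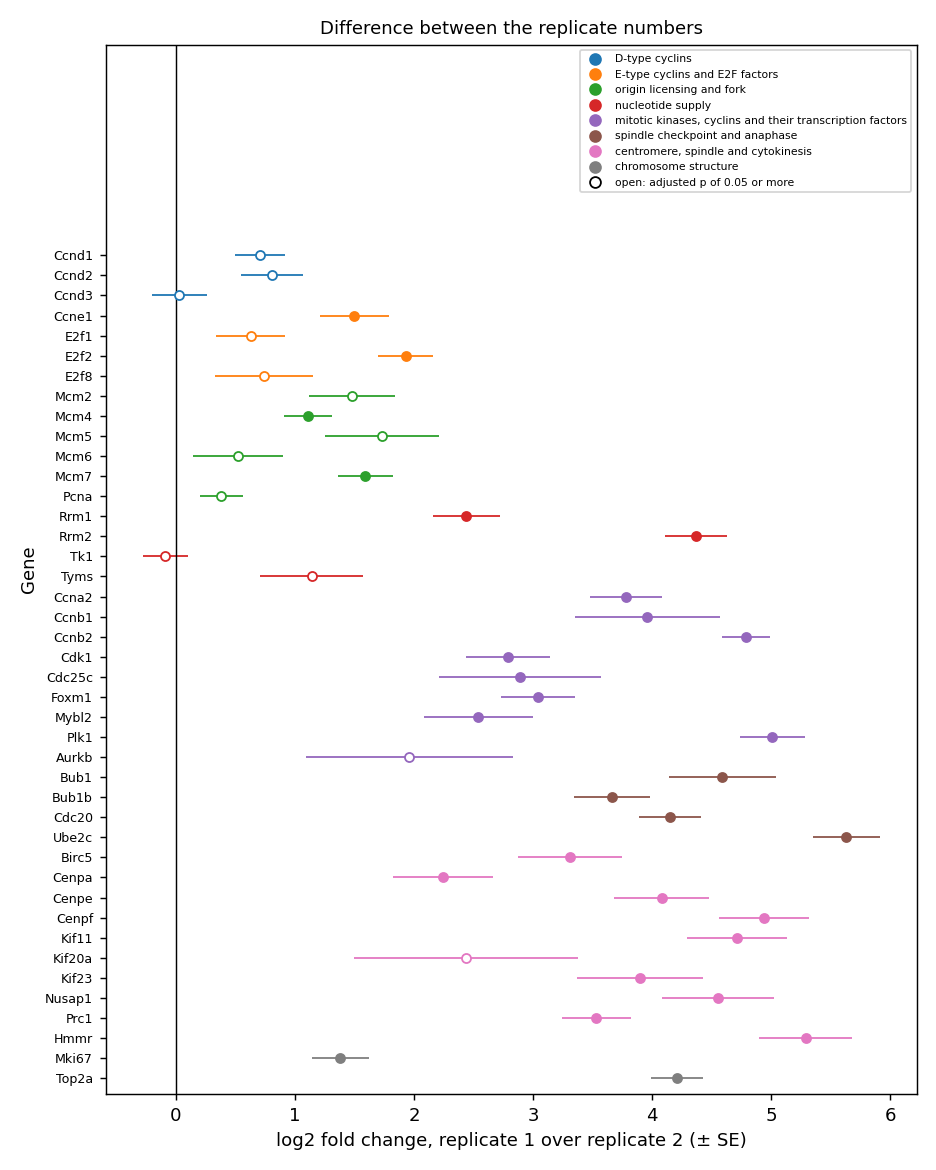
Log2 fold change of replicate 1 over replicate 2 with its SE for the 42 tested genes (rows, coloured by role), from the fit over 6 libraries with group as a term; filled points passed an adjusted p of 0.05. Mitotic genes lie between 1.38 (Mki67) and 5.63 (Ube2c), and Ccnd3 and Tk1 lie at 0.03 and -0.09.

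Other cell type markers, in lists drawn up with earlier results of these data known, also differed by replicate number. Of 14 stromal markers 7 were tested, and 5 of these (Col1a1, Col1a2, Col3a1, Col5a1 and Acta2) were higher in replicate 1, with a median log2 difference of 4.30 over the 7. Their list summed to 71.7, 48.3 and 72.6 CPM in replicate 1 of LPS+HACA, LPS and control, against 6.49, 12.5 and 6.88 CPM in replicate 2. Sparc was at 0 in every library, and Dcn, Pdgfra and Thy1 had at most 0.121 CPM in any. Of 12 neutrophil markers 6 were tested and 4 (Camp, Ngp, Ltf and Mmp9) were lower in replicate 1, with a median of -2.51. This list summed to 10.8, 23.8 and 12.3 CPM in replicate 1, against 66.5, 126 and 62.9 CPM in replicate 2, with Ly6g and S100a9 at 0 throughout. Just 2.49% of the exonic bases of S100a9 belong to a single transcript, against 64.4% for Ly6g. The 0 of S100a9 therefore does not show that the gene was silent. Of the 15 macrophage markers tested Marco and C1qb were lower in replicate 1, with a median of -0.37 over the 15. Of 3 tested T, NK and B cell markers Cd4 was lower. The median was -0.66 over 3 tested erythroid and megakaryocyte markers, 0.28 over 4 stem and progenitor markers and -0.22 over 4 dendritic and mast cell markers. The part of these other cells in the replicate difference was not tested. Apart from Mki67, the 26 mitotic genes together summed to 1109.7, 1110.4 and 643 CPM in replicate 1 of LPS+HACA, LPS and control, and to 52.8, 40.0 and 78.0 CPM in replicate 2.

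**Figure D3:**
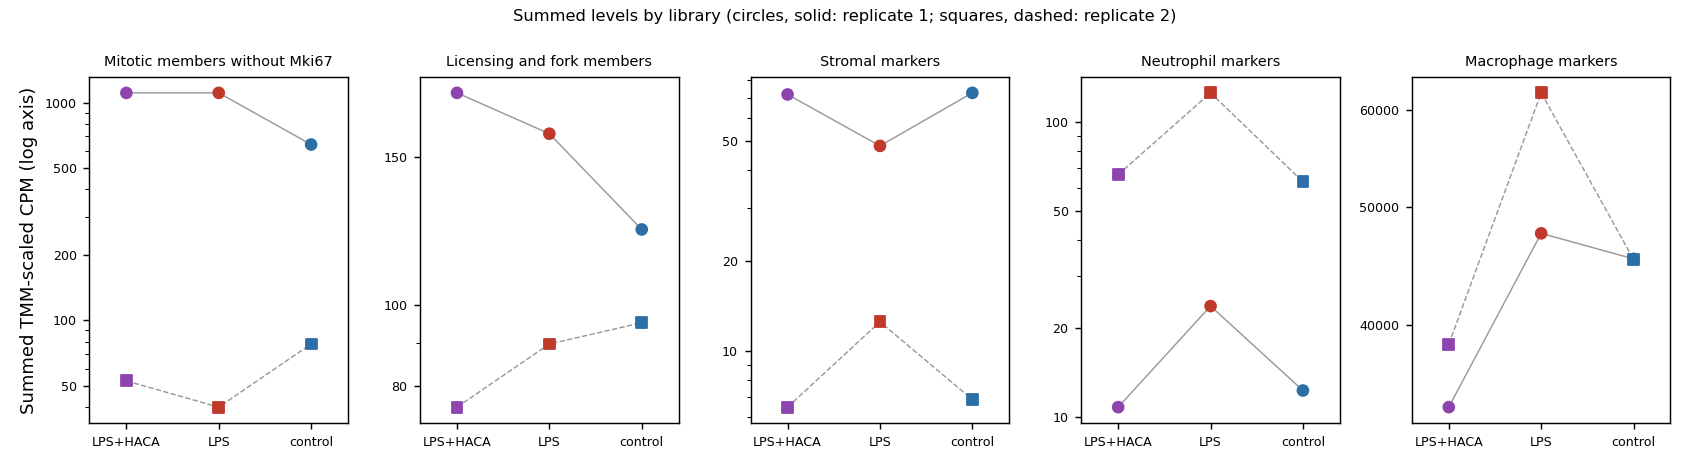
Summed TMM-scaled CPM (log axes) of 26 mitotic genes without Mki67, 11 licensing and fork genes, and the stromal, neutrophil and macrophage marker lists in the 6 libraries, with replicate 1 as circles and replicate 2 as squares. Mitotic genes and stromal markers sum higher in replicate 1 and neutrophil markers sum higher in replicate 2 in all 3 groups.

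Because of this split the treatments were compared within replicate number. LPS raised 6 of the 42 genes (Ccnd2, Tyms, Ccnb2, Ube2c, Mki67 and Top2a) and lowered 9 (Ccnd1, Ccnd3, E2f1, E2f2, Mcm7, Tk1, Bub1b, Birc5 and Cenpa) relative to control. These 15 are 35.7% of the genes tested, and 40.3% of all genes were called in this comparison, 20.5% higher and 19.8% lower. The median log2 fold change was -0.17, against -0.07 over all genes. LPS+HACA relative to LPS raised 6 genes (Ccnd1, E2f2, Mcm7, Tk1, Birc5 and Prc1) and lowered 2 (Ccnd2 and Mki67), which is 19.0%, against 25.2% of all genes, 11.4% higher and 13.8% lower. The median was 0.32, against 0.07 over all genes. Both shares lie below those of all genes, so the counts are no result about the set, and the results below are about its single genes. These comparisons share the LPS libraries, so a gene called in both is not called from independent data. Without the replicate block LPS raised 1 gene (Ccnd2) and lowered 3 (Ccnd1, Ccnd3 and Tk1), against 15.9% and 14.3% of all genes, and LPS+HACA raised 1 (Tk1) and lowered 1 (Ccnd2) relative to LPS, against 5.74% and 7.67%. With library totals in place of TMM, LPS raised 2 and lowered 14 genes, against 10.2% and 37.8% of all genes, and LPS+HACA raised 14 and lowered 1 relative to LPS, against 31.7% and 4.74%. Libraries did not overlap between LPS and control for 11 of the 42 genes, against 66.7% of all genes, nor between LPS+HACA and LPS for 9, against 57.7%. Leaving out control replicate 1 gave 3 higher and 14 lower genes for LPS against control, where 16.2% of all genes were called higher and 16.2% lower. Leaving out control replicate 2 gave 12 higher and 6 lower, against 14.4% and 12.5% of all genes. For LPS+HACA against LPS, 1 gene was higher without LPS+HACA replicate 1 and 10 without LPS replicate 1, against 3.78% and 15.8% of all genes, and 1 was lower without LPS+HACA replicate 2, against 5.23%.

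**Figure D4:**
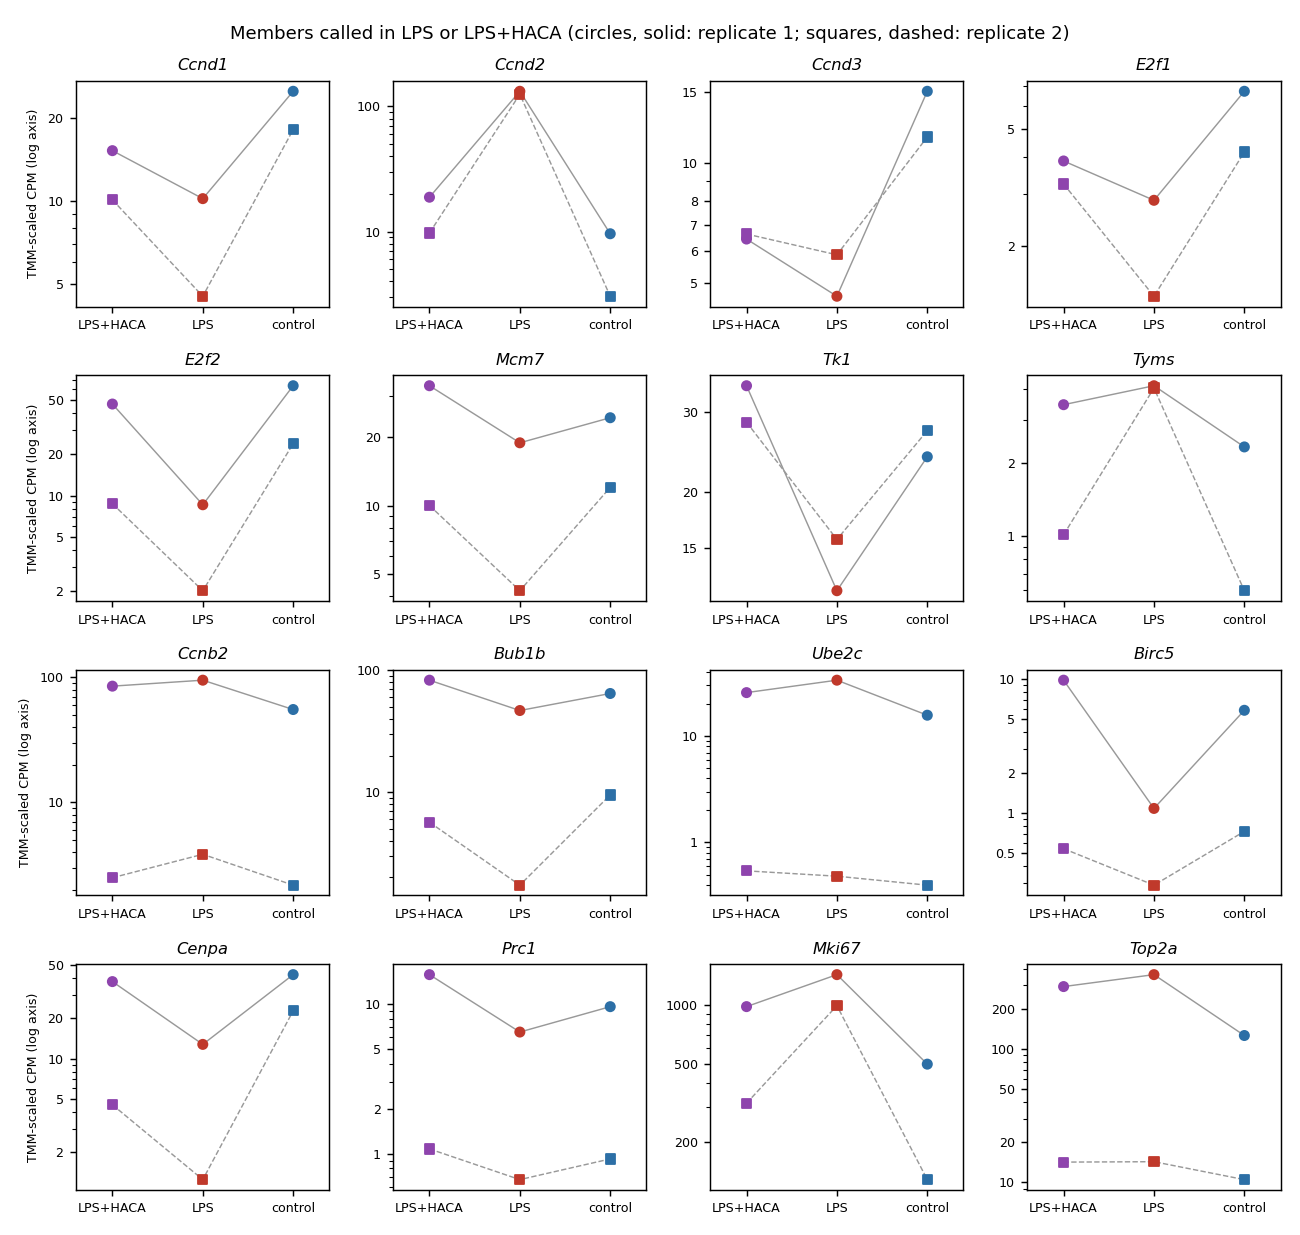
TMM-scaled CPM (log axes, a separate scale for each gene) of the 16 genes called in LPS against control or LPS+HACA against LPS, with replicate 1 as circles on solid lines and replicate 2 as squares on dashed lines. Ccnd2 peaks and E2f2, Tk1 and Ccnd1 dip in the LPS library of either number, whereas the lines for Top2a, Ube2c and Ccnb2 stay far apart by number.

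All 3 D-type cyclins changed with LPS, and not in one direction. Ccnd2 had 18.8 and 9.74 CPM in LPS+HACA, 132 and 125 CPM in LPS, and 9.60 and 3.04 CPM in control (replicates 1 and 2 in this order here and below). The LPS libraries lay far above the other 4 and close to each other. Ccnd2 rose with LPS by 4.52 ± 0.35 on the log2 scale (adjusted p = 8.12e-06) and fell in LPS+HACA relative to LPS (-3.29 ± 0.32, adjusted p = 0.000125). Both calls held in every fit that left out a library, with no block and with library totals, and they were 5.15 without control replicate 1 for LPS and -2.68 without LPS replicate 2 for LPS+HACA against LPS. Ccnd1 had 15.2 and 10.1 CPM in LPS+HACA, 10.2 and 4.53 CPM in LPS, and 24.9 and 18.1 CPM in control. It fell with LPS (-1.61 ± 0.26, adjusted p = 0.000804), and LPS and control did not overlap. Its rise in LPS+HACA relative to LPS (0.83 ± 0.26, adjusted p = 0.0424) was small, with the groups overlapping, and was lost with DESeq2 (adjusted p = 0.0849) and without LPS replicate 2, LPS+HACA replicate 1 or LPS+HACA replicate 2 (0.134, 0.234 and 0.357). Ccnd3 had 6.44 and 6.63 CPM in LPS+HACA, 4.63 and 5.88 CPM in LPS, and 15.1 and 11.6 CPM in control. LPS lowered it (-1.34 ± 0.28, adjusted p = 0.00406), and LPS+HACA did not differ detectably from LPS (0.31 ± 0.29, adjusted p = 0.457). Its 2 main transcripts were lower in LPS than in control in both replicates: one had 80 and 78 counts in LPS+HACA, 40 and 53 in LPS and 145 and 120 in control, and another had 18 and 9 in LPS+HACA, 0 and 0 in LPS and 82 and 47 in control.

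Among the tested E2F factors E2f2, one of the activating members, fell most with LPS. It had 46.6 and 8.72 CPM in LPS+HACA, 8.57 and 2.02 CPM in LPS, and 63.4 and 23.9 CPM in control. Control replicate 2 stood above both LPS libraries, while each LPS+HACA library stood above the LPS library of its own number. The log2 fold change was -3.22 ± 0.30 for LPS against control (adjusted p = 2.07e-05) and 2.29 ± 0.29 for LPS+HACA against LPS (adjusted p = 0.000502). Neither call passed without the block (adjusted p = 0.13 and 0.254), and both held without any 1 library. E2f1, another activator, had 3.89 and 3.25 CPM in LPS+HACA, 2.86 and 1.35 CPM in LPS, and 6.71 and 4.17 CPM in control. LPS lowered it (-1.39 ± 0.37, adjusted p = 0.0129), a call lost without the block (adjusted p = 0.0554) and without control replicate 1 (0.0667). LPS+HACA against LPS gave 0.81 ± 0.38 (adjusted p = 0.142). Ccne1, an E-type cyclin, and E2f8, a repressive E2F, passed in neither comparison, with log2 fold changes of -0.10 to 0.72 for LPS and 0.06 to 0.31 for LPS+HACA against LPS.

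Of the licensing and fork genes 6 of 11 were tested, and only Mcm7, a subunit of the replicative helicase, was called. It had 33.4 and 10 CPM in LPS+HACA, 18.8 and 4.24 CPM in LPS, and 24.2 and 12.0 CPM in control. LPS was lowest within each number, but LPS replicate 1 lay above every replicate 2 library, so the groups overlapped. Mcm7 fell with LPS (-0.88 ± 0.29, adjusted p = 0.0331) and rose in LPS+HACA relative to LPS (0.98 ± 0.29, adjusted p = 0.0314). The fall did not pass without the block (adjusted p = 0.63), or without control replicate 2 (-0.45, adjusted p = 0.328), LPS replicate 2 (-0.53, adjusted p = 0.1) or LPS+HACA replicate 1 (-0.90, adjusted p = 0.0543), and it was -1.39 without control replicate 1. The rise did not pass without the block (adjusted p = 0.54) or without either LPS+HACA library (adjusted p = 0.287 and 0.0944 without replicates 1 and 2). Mcm4, a neighbouring helicase subunit, had 44.7 and 19.0 CPM in LPS+HACA, 40.7 and 14.1 CPM in LPS, and 33.2 and 22.1 CPM in control, and Pcna had 67.8 and 37.5, 76.6 and 63.9, and 46.1 and 45.6 CPM. Neither passed for LPS (-0.17 ± 0.25 and 0.60 ± 0.22, adjusted p = 0.618 and 0.0544) or for LPS+HACA against LPS (0.26 ± 0.25 and -0.45 ± 0.22, adjusted p = 0.462 and 0.165). For Mcm2, Mcm5 and Mcm6 the log2 fold changes were -0.68 to -0.03 with LPS and 0.41 to 0.89 in LPS+HACA relative to LPS, with adjusted p of 0.225 or more.

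In the nucleotide supply group Tk1, which salvages thymidine, fell with LPS and rose in LPS+HACA relative to LPS. It had 34.3 and 28.5 CPM in LPS+HACA, 12.1 and 15.7 CPM in LPS, and 23.9 and 27.3 CPM in control. Both LPS libraries lay below the other 4, and both LPS+HACA libraries above all of them. The log2 fold change was -0.88 ± 0.23 for LPS (adjusted p = 0.012) and 1.18 ± 0.23 for LPS+HACA against LPS (adjusted p = 0.00511), and Tk1 also passed both comparisons with no block (adjusted p = 0.0342 and 0.0248). The first call was lost without control replicate 2 (-0.79, adjusted p = 0.0699) and the second without LPS+HACA replicate 1 (0.93, adjusted p = 0.174). Its most abundant transcript held 50.7% of its counts. Tyms, thymidylate synthase, which makes thymidylate anew, had 3.46 and 1.01 CPM in LPS+HACA, 4.14 and 4.05 CPM in LPS, and 2.32 and 0.595 CPM in control. LPS raised it (1.71 ± 0.52, adjusted p = 0.0249), but not with no block (1.48, adjusted p = 0.158), library totals (1.08, adjusted p = 0.112), without control replicate 2 (adjusted p = 0.143) or without LPS replicate 2 (0.87, adjusted p = 0.187). Without control replicate 1 it was 2.35 and without LPS replicate 1 it was 2.68. LPS+HACA against LPS was -1.09 ± 0.50 (adjusted p = 0.14). Rrm1, the large subunit of ribonucleotide reductase, had 111 and 18.4 CPM in LPS+HACA, 104 and 11.2 CPM in LPS, and 67.9 and 23.0 CPM in control. Neither Rrm1 (-0.18 ± 0.33 and 0.33 ± 0.32, adjusted p = 0.695 and 0.478) nor the small subunit Rrm2 (0.66 ± 0.30 and 0.19 ± 0.29, adjusted p = 0.107 and 0.653) passed for LPS or for LPS+HACA against LPS.

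Of 9 tested genes of mitotic entry, the kinases, cyclins and their transcription factors, Ccnb2 alone was called for a treatment. It had 85.2 and 2.5 CPM in LPS+HACA, 95.1 and 3.85 CPM in LPS, and 55.4 and 2.18 CPM in control. LPS was higher than control within each number, by 0.80 ± 0.22 in log2 (adjusted p = 0.0171), while across numbers the groups overlapped. The call was lost with no block (adjusted p = 0.856), with library totals (0.18, at an adjusted p of 0.516), on leaving out control replicate 1 (0.65, adjusted p = 0.21) and without LPS+HACA replicate 1 (0.79, adjusted p = 0.0593). Plk1 had 33.4 and 1.22 CPM in LPS+HACA, 31.5 and 0.578 CPM in LPS, and 21.6 and 0.794 CPM in control, with a log2 fold change of 0.36 ± 0.30 for LPS (adjusted p = 0.369) and 0.28 ± 0.29 for LPS+HACA against LPS (adjusted p = 0.513). The other 7 (Ccna2, Ccnb1, Cdk1, Cdc25c, Foxm1, Mybl2 and Aurkb) had 0.911 to 29.2, 0.493 to 17.0 and 0.941 to 15.9 CPM in replicate 1 of LPS+HACA, LPS and control, and at most 2.43, 4.05 and 1.59 CPM in replicate 2. Their log2 fold changes were -1.13 to 0.68 for LPS and 0.16 to 1.93 for LPS+HACA against LPS, with adjusted p of 0.0831 or more.

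Among the spindle checkpoint and anaphase genes, Bub1b and Ube2c were called for LPS, in opposite directions. Bub1b, the checkpoint kinase BUBR1, had 83.2 and 5.68 CPM in LPS+HACA, 46.9 and 1.73 CPM in LPS, and 64.7 and 9.52 CPM in control. LPS was lower than the other groups within each number (-1.22 ± 0.37 against control, adjusted p = 0.0255; LPS+HACA against LPS 1.03 ± 0.36, adjusted p = 0.0629). The call did not pass with no block (adjusted p = 0.865), without control replicate 2 (-0.61, adjusted p = 0.139) or without LPS replicate 2 (-0.69, adjusted p = 0.0698), and it was -2.08 without control replicate 1 and -2.15 without LPS replicate 1. Ube2c rose with LPS (0.96 ± 0.30, adjusted p = 0.027), while its replicate 2 libraries held only 0.541, 0.482 and 0.397 CPM in LPS+HACA, LPS and control. It was lost with no block, library totals and DESeq2 (adjusted p = 0.811, 0.321 and 0.0826), and without control replicate 1, LPS replicate 1, LPS+HACA replicate 1 or LPS+HACA replicate 2 (0.52, 0.42, 0.91 and 0.93, with adjusted p of 0.625, 0.69, 0.117 and 0.0874). Cdc20 had 36.9 and 2.43 CPM in LPS+HACA, 38.9 and 1.25 CPM in LPS, and 29.6 and 2.12 CPM in control, and neither Cdc20 nor the checkpoint kinase gene Bub1 passed (adjusted p = 0.872 and 0.32 for LPS, 0.63 and 0.74 for LPS+HACA against LPS).

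Of the 10 tested genes of the centromere, spindle and cytokinesis, LPS lowered Birc5 and Cenpa, and LPS+HACA raised Birc5 and Prc1 relative to LPS. Birc5, survivin, a subunit of the chromosomal passenger complex, had 9.78 and 0.541 CPM in LPS+HACA, 1.08 and 0.289 CPM in LPS, and 5.83 and 0.728 CPM in control. LPS was lowest within each number, at -2.20 ± 0.58 against control (adjusted p = 0.0125), and LPS+HACA was 2.63 ± 0.57 higher than LPS (adjusted p = 0.00828). Neither passed with no block (adjusted p = 0.404 and 0.342) or without LPS replicate 1 (-0.86 and 1.35, adjusted p = 0.465 and 0.254), and the second was also lost without LPS+HACA replicate 1 (1.44, adjusted p = 0.467). Cenpa, the histone variant that marks centromeres, had 37.7 and 4.53 CPM in LPS+HACA, 12.8 and 1.25 CPM in LPS, and 42.5 and 22.8 CPM in control. Both control libraries were above both LPS libraries, at -2.82 ± 0.53 for LPS against control (adjusted p = 0.00268), a call lost with no block (adjusted p = 0.351) and without LPS replicate 1 (-3.73, adjusted p = 0.254) or LPS replicate 2 (-2.22, adjusted p = 0.339). Without control replicate 1 it was -4.06, and without control replicate 2 it was -1.78. LPS+HACA against LPS was 1.55 ± 0.51 (adjusted p = 0.0528). Prc1, which bundles microtubules of the central spindle, had 15.7 and 1.08 CPM in LPS+HACA, 6.50 and 0.674 CPM in LPS, and 9.60 and 0.926 CPM in control. Its rise in LPS+HACA relative to LPS (1.11 ± 0.34, adjusted p = 0.0394) was lost with no block and DESeq2 (adjusted p = 0.714 and 0.12) and without LPS replicate 1, LPS+HACA replicate 1 or LPS+HACA replicate 2 (0.313, 0.624 and 0.139).

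The kinetochore motor gene Cenpe had 116 and 5.75 CPM in LPS+HACA, 168 and 4.43 CPM in LPS, and 49.9 and 7.28 CPM in control, and the spindle motor gene Kif11 had 111 and 2.43, 104 and 2.12, and 59.3 and 5.82 CPM. For both, LPS was above control in replicate 1 and below it in replicate 2. They were at 0.69 ± 0.47 and -0.13 ± 0.48 for LPS (adjusted p = 0.266 and 0.848) and at -0.26 ± 0.44 and 0.09 ± 0.45 for LPS+HACA against LPS (adjusted p = 0.694 and 0.9). For Cenpf, Kif20a, Kif23, Nusap1 and Hmmr the log2 fold changes were -1.39 to 0.94 and -0.18 to 1.23 in these comparisons, with adjusted p of 0.111 or more.

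Mki67 and Top2a, the chromosome structure genes and the usual markers of dividing cells, both rose with LPS, and Mki67 alone fell in LPS+HACA relative to LPS by the test; the difference between the genes was not tested. Mki67 had 977 and 314 CPM in LPS+HACA, 1423 and 988 CPM in LPS, and 497 and 128 CPM in control. Both LPS libraries lay above the other 4, LPS replicate 2 only just above LPS+HACA replicate 1. Mki67 rose with LPS by 2.27 ± 0.31 (adjusted p = 0.000338) and fell in LPS+HACA relative to LPS (-1.15 ± 0.29, adjusted p = 0.0194). The rise was lost with no block (adjusted p = 0.163), and the fall with no block (0.528), library totals (0.166) and without LPS+HACA replicate 2 (-0.95, adjusted p = 0.0746). The sizes also rested on the LPS libraries: without LPS replicate 1 the rise was 2.88 and the fall -1.74, and without LPS replicate 2 they were 1.6 and -0.46. Top2a had 293 and 14.2 CPM in LPS+HACA, 360 and 14.3 CPM in LPS, and 126 and 10.5 CPM in control, so LPS stood above control within each number. It rose with LPS by 1.01 ± 0.25 (adjusted p = 0.00879), and the call was lost with no block (adjusted p = 0.702), library totals (0.37, at an adjusted p of 0.317) and on leaving out control replicate 1 (0.50, adjusted p = 0.195). Top2a was at -0.18 ± 0.24 for LPS+HACA against LPS (adjusted p = 0.611). The ratio of Mki67 to Top2a CPM was 3.34, 3.95 and 3.93 in replicate 1 of LPS+HACA, LPS and control, and 22.1, 69.3 and 12.1 in replicate 2. In replicate 1 the genes kept nearly the same ratio. In LPS replicate 2 Mki67 had 988 CPM, against 314 and 128 CPM in replicate 2 of LPS+HACA and control. Top2a had 14.3 CPM there, against 14.2 and 10.5 CPM. Its replicate 2 levels, like those of most other mitotic genes, were low relative to replicate 1 in every group.

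Within each replicate number the ratios were as follows. For LPS against control, 23 genes were above 0 and 19 below in replicate 1, with a median log2 ratio of 0.19, and 12 were above and 30 below in replicate 2, with a median of -0.52. The sign was opposite in the replicates for 15 of the 42 genes (35.7%), against 22.4% of all genes. For LPS+HACA against LPS, 30 genes were above 0 and 12 below in either replicate, with medians of 0.34 and 0.40, and 8 genes had opposite signs, against 23.6% of all genes. These ratios are single pairs of libraries with 0.5 CPM added to each value, and have no error of their own.

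**Figure D5:**
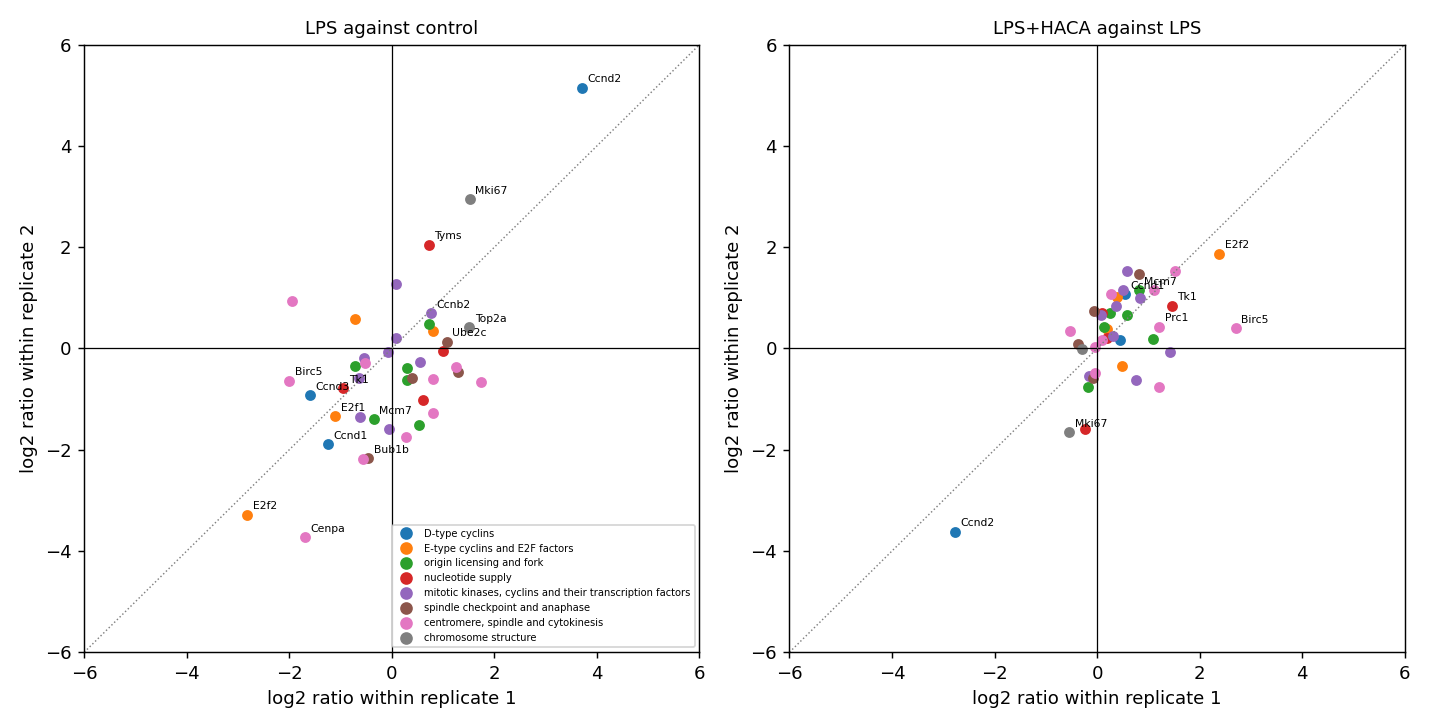
Log2 ratio within replicate 1 (horizontal) and within replicate 2 (vertical) for the 42 tested genes, for LPS against control on the left and LPS+HACA against LPS on the right, coloured by role and named where the adjusted p was under 0.05. On the left Ccnd2 and Mki67 lie high and E2f2 and Cenpa low in both replicates, and 15 genes lie in quadrants of opposite sign.

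For LPS+HACA against control no gene of the set passed the test. At an adjusted p under 0.05, 0 were higher and 0 lower, where 5.46% of all genes were called (3.67% higher and 1.79% lower). At an unadjusted p under 0.05, 7 were higher and 4 lower, against 9.75% and 7.44% of all genes. DESeq2 called 2 higher and 1 lower, against 3.83% and 1.71% of all genes. With no filter on low counts edgeR called 4 higher and 3 lower, against 3.45% and 1.9%. Leaving out 1 library gave 0 to 8 higher and 0 to 3 lower genes, with 8 higher and 3 lower without LPS replicate 2 (8.51% and 6.27% of all genes) and 6 higher and 3 lower without LPS replicate 1 (8.6% and 6.21%). There were 2 higher and 3 lower without control replicate 1 (2.9% and 1.36% of all genes), 3 higher without control replicate 2 (2.82%) and 2 higher without LPS+HACA replicate 2 (1.74%). The nearest to the threshold were Ccnd3 (-1.03 ± 0.27, adjusted p = 0.0587), Ccnd2 (1.23 ± 0.32, 0.0593), Mki67 (1.11 ± 0.29, 0.0611) and E2f2 (-0.93 ± 0.26, 0.0703). Ccnd3 and Ccnd2 libraries did not overlap between these groups, as for 5 of the 42 genes and for 46.5% of all genes. The median log2 fold change was 0.27, against -0.00 over all genes. Within replicate 1, 33 genes were above 0 and 9 below (median 0.59), and within replicate 2, 20 were above and 22 below (median -0.19), with opposite signs for 21 genes, against 32.7% of all genes.

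Other genes of the cycle also differed between the replicate numbers. Their lists were drawn up with earlier results of these data known, so they give no independent support. Of all genes, 2.5% were called higher in replicate 1. Of 50 tested mitosis genes outside the set, 35 were higher in replicate 1, all 50 had a log2 difference above 0, and the median was 3.21. Aspm, a spindle pole protein, had 51.0, 35.6 and 38.8 CPM in replicate 1 of LPS+HACA, LPS and control, against 1.15, 1.16 and 1.46 CPM in replicate 2. Of 36 tested replication genes 10 were higher in replicate 1, with a median of 0.54, and of 25 tested other CDKs, E2Fs and checkpoint kinases 3 were higher (E2f7, Fbxo5 and Wee1). With LPS, 8 mitosis genes were higher and 6 lower (28.0% of those tested), and 3 replication genes were higher and 9 lower (33.3%), against 40.3% of all genes. With library totals these were 4 and 15 mitosis genes and 0 and 14 replication genes, against 10.2% and 37.8% of all genes. Among these, the chromatin protein gene Hmgb2 (2.26 ± 0.23, adjusted p = 4.28e-05) and Pttg1, securin (1.99 ± 0.31, adjusted p = 0.000614), rose, and the clamp loader gene Rfc2 (-1.79 ± 0.28, adjusted p = 0.000687) and the histone kinase gene Haspin (-1.62 ± 0.29, adjusted p = 0.00164) fell. LPS+HACA relative to LPS raised 4 and lowered 4 mitosis genes (16.0%) and raised 5 and lowered 1 replication gene (16.7%), against 25.2% of all genes. With library totals it raised 14 and lowered 1 mitosis gene, and raised 16 and lowered 0 replication genes. Over all genes 31.7% were then higher and 4.74% lower, so these counts are no result about the lists.

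Of 23 tested CDK inhibitors and growth arrest genes, LPS raised 9 and lowered 4 (56.5%, against 40.3% of all genes), and LPS+HACA raised 1 and lowered 7 relative to LPS (34.8%, against 25.2% of all genes). With library totals LPS raised 8 and lowered 8, against 10.2% and 37.8% of all genes. LPS+HACA then raised 8 and lowered 3 relative to LPS, against 31.7% and 4.74%. The directions thus depended on the scaling, as they did over all genes. Gadd45b, a stress-induced growth arrest gene, had 38.3 and 46.0 CPM in LPS+HACA, 152 and 292 CPM in LPS, and 8.41 and 12.2 CPM in control, at 4.39 ± 0.23 for LPS (adjusted p = 6.67e-07) and -2.33 ± 0.21 for LPS+HACA against LPS (adjusted p = 6.82e-05). Cdkn2b, the CDK inhibitor p15INK4B, rose with LPS by 3.62 ± 0.37 (adjusted p = 4.09e-05), and LPS+HACA stayed above control for Gadd45b (2.06 ± 0.22, adjusted p = 0.000546) and Cdkn2b (2.24 ± 0.36, adjusted p = 0.0056). Of 25 tested other CDKs, E2Fs and checkpoint kinases LPS raised 3 and lowered 7 (40%, against 40.3% of all genes). LPS+HACA raised 5 and lowered 1 relative to LPS (24%, against 25.2%). Both shares are near those of all genes, so the counts are no result about the list. Among its single genes, LPS raised Cdk6, a partner of the D-type cyclins (1.45 ± 0.16, adjusted p = 7.49e-05). Lower with LPS were Cdk2, the partner of the E-type cyclins (-1.89 ± 0.35, adjusted p = 0.00177), and Skp2, which targets the inhibitor p27 for degradation (-2.48 ± 0.42, adjusted p = 0.00107). Cdk2 rose in LPS+HACA relative to LPS (1.47 ± 0.35, adjusted p = 0.0134). Of 17 tested growth signal genes LPS raised 5 and lowered 5 (58.8%, against 40.3% of all genes). With library totals these were 3 and 9, against 10.2% and 37.8% of all genes. Csf1, the macrophage growth factor, rose with LPS (5.85 ± 0.30, adjusted p = 5.05e-07). In LPS+HACA Csf1 fell relative to LPS (-3.26 ± 0.24, adjusted p = 2.18e-05) and its receptor gene Csf1r rose (0.96 ± 0.21, adjusted p = 0.0087). Csf1 in LPS+HACA stayed above control (2.60 ± 0.30, adjusted p = 0.000928).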

How the data were processed

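RNA sequencing reads were counted per transcript by the authors, and the deposited values are raw counts, whole numbers per transcript and library with no normalization. The submitters' processing notes list STAR 2.5.4b, Trim Galore and CASAVA, the packages edgeR 3.28.1, DESeq2 1.26.0 and limma, and the builds GRCm38 and GRCh38, without saying what each was used for. Counts were summed per GENCODE vM21 gene identifier (141524 of 142647 transcripts matched). Genes kept by filterByExpr in edgeR 4.0.16 (R 4.3.3) were scaled by TMM and fitted by a robust quasi-likelihood model with group and replicate number, which leaves 2 residual degrees of freedom, and p-values were adjusted by Benjamini-Hochberg over 17113 genes. A gene was called at an adjusted p under 0.05. SEs were obtained from each log2 fold change and its F statistic. DESeq2 1.42.0, library totals, no filter, no block and leaving out each library were alternatives. Deviations from group means of same-numbered libraries correlated at 0.308, 0.498 and 0.509 between pairs of groups, from the data and not the labels. Members and lists were chosen with earlier results of these data known. Genes called for a treatment, and the 2 with the highest mean CPM of each role, are given per library, and the rest as ranges. Of the further lists at most 3 called genes per direction and comparison, those with the smallest adjusted p, could be named, and those printed, and Aspm and Gadd45b for values per library, were picked from them after their values were seen.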

Additional observations from a re-analysis of the deposited data

How the results depend on the processing

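With no replicate block, LPS against control gave 1 gene higher and 3 lower and LPS+HACA against LPS 1 higher and 1 lower. The labels do not say what the numbers pair, and only 2 numbers exist. With library totals these comparisons gave 2 higher and 14 lower, and 14 higher and 1 lower, and over all genes 1744 higher and 6465 lower, and 5422 higher and 812 lower, against 3506 and 3384, and 1955 and 2356, with TMM. With no filter on low counts LPS+HACA against LPS gave 10 higher. LPS+HACA against control then gave 4 higher and 3 lower, against 3.45% and 1.9% of all genes. The share of all genes is not given for the count of 10, so that count describes the fit and is no result about the set. DESeq2 with the block gave 2 higher and 1 lower for LPS+HACA against control. Leaving out 1 library gave 3 to 12 higher and 6 to 14 lower for LPS against control, 1 to 10 higher and 1 to 3 lower for LPS+HACA against LPS, and 0 to 8 higher and 0 to 3 lower for LPS+HACA against control. In these fits the lone library of a group is assumed to vary like the others. The replicate difference gave 25 to 29 genes higher. No gene changed sign under these alternatives in a comparison where it was called. Of genes not called, Mcm5, Rrm1, Cenpf and Kif11 turned to 0.11, 0.34, 0.20 and 0.70 without the block for LPS against control. Cdc20 turned to -0.03 for LPS+HACA against LPS. For LPS+HACA against control, Mcm2, Bub1b, Cenpf, Kif11 and Kif23 turned to 0.25, 0.26, 0.51, 0.80 and 0.40 without the block. Other alternatives were compared gene by gene only for called genes. The 8 genes with 7 to 48 counts were not tested, and the part of depth in this was not tested.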
